A study of Rattus norvegicus with 11 samples.

Results

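The 10 genes described here are the PGC-1 family of transcriptional coactivators (Ppargc1a, Ppargc1b and Pprc1), the nuclear receptors and transcription factors they work with (Esrra, Esrrg, Ppara, Ppard, Nrf1 and Gabpa) and Tfam, a target of this circuit that acts inside mitochondria. They were chosen by symbol, and all 10 were found among the 16810 rows of the count table and among the 10814 genes with enough counts to be tested. The RNA came from whole soleus muscle, a slow postural muscle of the hind limb, of 11 male Sprague Dawley rats that had reached 12 months, with no 2 animals from the same litter. Mothers of the 6 control animals ate a chow with 6% fat and 10% sucrose, and mothers of the 5 high-fat animals ate a lard-based diet with 23.3% fat and 20% sucrose, starting 3 weeks before mating and ending with lactation. A second account of the design gives 7% and 23.5% fat. All offspring were weaned on day 21 and ate standard chow for the rest of their lives, so every animal shared its own adult diet and a short fast before anaesthesia. Animals are numbered within each group, and each served as 1 replicate.

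PGC-1 coactivators bind no DNA themselves. They dock on receptors and factors already seated at promoters and recruit the machinery that opens chromatin and starts transcription. The estrogen-related receptors Esrra and Esrrg, together with NRF-1 and the GA-binding protein, switch on nuclear genes for the respiratory chain, while the PPAR receptors switch on fatty acid oxidation. Tfam carries the programme into the organelle, where it packages mitochondrial DNA and starts its transcription. In muscle the circuit is known for raising mitochondrial content with exercise, cold and fasting. The transcripts of complex I, the first and largest enzyme of the respiratory chain, serve here as the readout of that programme: 42 rows with symbols starting with Nduf, of which 6 are assembly factors (Ndufaf), were summed per animal.

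Promoter sequence is printed for the GA-binding protein subunit itself (Gabpa), its textbook target Tfam, the receptor Esrra and the coactivator Ppargc1a. The 4 windows of Esrrg were searched as well but are not printed. Each window is the 250 bases before the RefSeq start site in build GRCr8 of the rat, 5′ to 3′ on the gene's own strand. Capitals mark the letters CCGGAAG of the GA-binding protein, read on either strand, or TGACGTCA of the cAMP response element bound by CREB.
Gabpa (chr11:37375014-37375263, plus strand): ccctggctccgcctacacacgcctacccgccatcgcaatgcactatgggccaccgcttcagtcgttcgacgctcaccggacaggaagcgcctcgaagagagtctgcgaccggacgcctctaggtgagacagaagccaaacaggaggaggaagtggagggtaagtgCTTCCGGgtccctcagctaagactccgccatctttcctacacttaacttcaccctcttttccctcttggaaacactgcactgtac
Tfam (chr20:17355123-17355372, plus strand): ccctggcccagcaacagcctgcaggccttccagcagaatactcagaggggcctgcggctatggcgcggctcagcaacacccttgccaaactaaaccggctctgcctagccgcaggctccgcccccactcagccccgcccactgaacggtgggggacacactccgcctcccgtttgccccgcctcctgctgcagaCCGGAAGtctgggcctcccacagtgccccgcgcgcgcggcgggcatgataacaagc
Esrra (chr1:213543306-213543555, minus strand): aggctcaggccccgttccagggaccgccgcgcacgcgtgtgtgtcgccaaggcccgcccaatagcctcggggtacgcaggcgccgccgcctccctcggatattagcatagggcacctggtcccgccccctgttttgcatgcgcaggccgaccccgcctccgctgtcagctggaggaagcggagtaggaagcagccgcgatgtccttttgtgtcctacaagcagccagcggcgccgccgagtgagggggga
Ppargc1a (chr14:63634058-63634307, plus strand): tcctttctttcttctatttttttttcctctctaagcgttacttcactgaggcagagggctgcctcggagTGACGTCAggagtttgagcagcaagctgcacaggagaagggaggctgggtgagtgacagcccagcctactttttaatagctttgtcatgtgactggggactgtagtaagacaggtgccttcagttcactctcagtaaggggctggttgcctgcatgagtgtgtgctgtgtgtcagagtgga
In Tfam the CCGGAAG letters lay 56 to 50 bases before the start. In Gabpa they lay on the opposite strand, 85 to 79 bases before its start. In Ppargc1a the TGACGTCA letters lay 181 to 174 bases before the start. None of the 5 searched motifs was found in the Esrra window. The other searches, on both strands, were GCGCA followed directly by TGCGC for NRF-1, TCAAGGTCA for the estrogen-related receptors, and a repeat of AGGTCA with any 1 base between the copies for the PPAR receptors. The NRF-1 letters occurred in 1 of 12 member windows, that of Ppara, 100 to 91 bases before the start, and the receptor motifs in none of the 12. Over all 33469 windows of 250 bases the shares were 7.27% for CCGGAAG, 1.59% for TGACGTCA, 0.762% for the NRF-1 letters, 0.388% for TCAAGGTCA and 0.0508% for the PPAR repeat. These matches are descriptions of letters in a window and not of occupancy, and no window of Ppard was in the table used.

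Libraries held 10.2 to 15.4 M counts (M, mega). The 10 members had between 49 and 3440 counts per library, so none was near the limit of 3 counts that a count of 0 allows. Levels are given as CPM, counts per M counted reads of a library, after TMM scaling (a trimmed mean of log ratios between libraries). Counting error alone would give coefficients of variation (CV) of 1.96% for Esrra to 10.9% for Ppara over the 11 animals. The tissue label was met by the markers: all 10 listed slow fibre genes had counts, and their summed level ran from 77580 to 109700 CPM over the animals. Of 12 counted fast fibre genes the summed level ran from 11310 to 48440 CPM, so the share of fast fibre transcripts differed widely between animals of both groups. In such whole-muscle RNA, fewer cells of a type and less RNA per cell cannot be told apart.

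The coactivators differed from one another in how much they varied. Ppargc1a, the inducible coactivator that gives the family its name, had the widest spread of the 10 members, with a CV of 40.4% over the 11 animals and 3.36-fold between the lowest and the highest. Pprc1, the growth-responsive member of the family, had the narrowest, with a CV of 8.82%. Ppargc1b, which also serves the estrogen-related receptors, lay between them at 15.1%. The median gene tested had a CV of 18.7%, with quartiles at 12.8% and 29.4%. Among the partners Esrrg (33.3%), Ppard (26.6%) and Ppara (24.9%) lay above that median, and Gabpa (15.9%), Nrf1 (12.7%), Esrra (12.3%) and Tfam (11.1%) below it. CPM does not account for transcript length, so levels are compared here between animals and not between genes.

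The first comparison asked whether the mother's diet was followed by other levels of these genes in the adult offspring. The test was edgeR's quasi-likelihood test over all genes with Benjamini-Hochberg adjustment. None of the 10 members passed at an adjusted p of 0.05, and none of the 10814 genes did (0% called). The smallest adjusted p over all genes was 0.471. Before adjustment 523 genes, 4.84% of those tested, had a p under 0.05, of which 1 was a member, Ppard. DESeq2 called 7 genes, none of them a member, and limma voom called 0. The groups overlapped for each of the 10 members, against 40 genes (0.37%) over the whole table whose groups did not overlap. Of the members 5 had a higher and 5 a lower fitted level in the high-fat group, with a median log2 difference of 0.01, against 0.0039 over all genes.

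Ppard encodes PPAR delta, the receptor that responds to fatty acids in oxidative muscle. Its level in the control group ran from 23.1 CPM to 38.9 CPM with a median of 30.7. The high-fat animals 1 to 5 had 42.03, 48.3, 37.02, 56.7 and 32.5 CPM. High-fat animals 1, 2 and 4 lay above every control animal, whereas animals 3 and 5 lay within the control range. The means were 43.3 ± 9.51 CPM (SD, n = 5) in the high-fat and 30.7 ± 5.34 CPM (SD, n = 6) in the control group. The fitted log2 fold change was 0.50 ± 0.16 (SE), with an unadjusted p of 0.00738 and an adjusted p of 0.974 over all genes in edgeR. Leaving out 1 animal at a time moved it between 0.38 (high-fat animal 4 left out) and 0.58 (high-fat animal 5 left out). With the summed Nduf level as a second term the difference was 0.58 ± 0.14, with an adjusted p of 0.796 in edgeR.

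Ppargc1a had 4.81 to 11.4 CPM in the control group, with a median of 6.46. In high-fat animals 1 to 5 it had 11.1, 12.9, 6.03, 16.2 and 7.82 CPM. The highest values were those of high-fat animals 4 and 2, followed by control animal 2, so the groups overlapped over most of their ranges. The log2 fold change was 0.52 ± 0.28 (SE), with an adjusted p of 0.974 in edgeR and 0.32 without high-fat animal 4. The other coactivators had log2 fold changes of -0.12 ± 0.13 for Ppargc1b and 0.04 ± 0.10 for Pprc1. Ppargc1b had a mean of 18.5 ± 2.48 CPM in the control group (SD, n = 6) and 16.9 ± 2.97 CPM among high-fat animals (SD, n = 5).

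**Figure D1:**
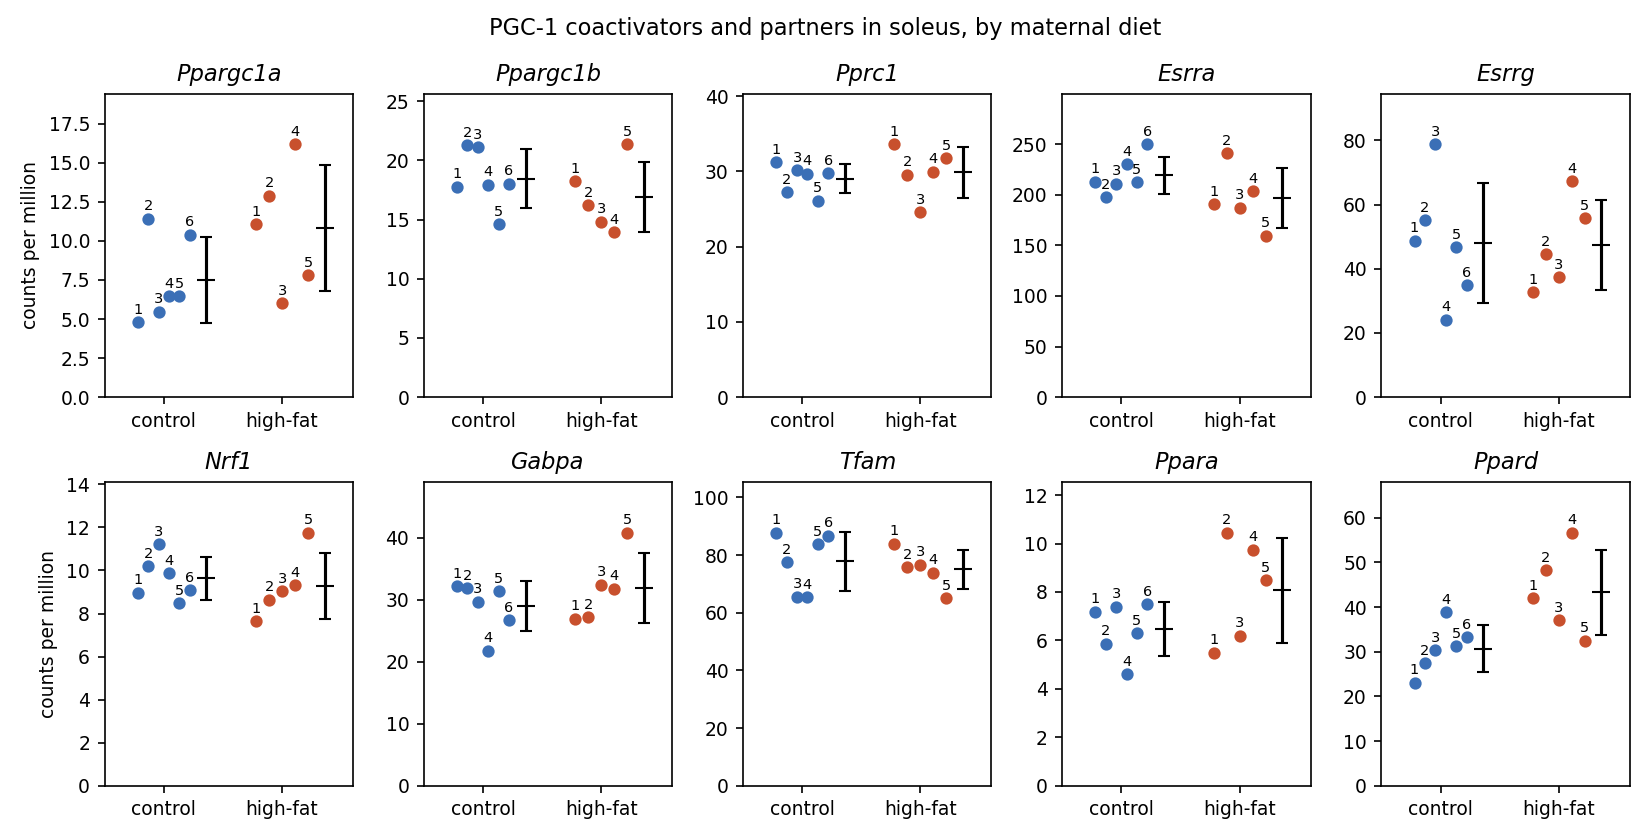
Level of each of the 10 genes in CPM (linear axes from 0) for the 6 control and 5 high-fat animals. Points are single animals with their numbers, and the black bar beside each group marks its mean and SD. The groups overlap in every panel. High-fat animal 4 is the highest point for Ppargc1a (16.2 CPM) and for Ppard (56.7 CPM).

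Among the receptors, Ppara, the PPAR of fasting and fat oxidation, had 4.603 to 7.48 CPM in control animals (median 6.74). High-fat animals 1 to 5 had 5.49, 10.5, 6.20, 9.75 and 8.48 CPM. High-fat animals 2, 4 and 5 exceeded all control animals and the other two did not, and the log2 fold change was 0.32 ± 0.20, with an adjusted p of 0.974 in edgeR. Esrra, the estrogen-related receptor of oxidative metabolism, had 198 to 250 CPM in control animals (median 212). High-fat animals 1 to 5 had 190, 241, 187, 204 and 160 CPM, with 3 of the 5 under the lowest control animal. The Esrra log2 fold change was -0.16 ± 0.11, with an adjusted p of 0.974 in edgeR. Esrrg, the related receptor of slow, well-vascularised fibres, had 48.1 ± 18.7 CPM in the control group (SD, n = 6) and 47.5 ± 14.05 CPM among high-fat animals (SD, n = 5). Its log2 fold change was -0.02 ± 0.26, and the sign depended on the animals and on the scaling used.

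The DNA-binding factors Nrf1 and Gabpa and the mitochondrial factor Tfam did not pass by diet either. Nrf1, which binds promoters of respiratory chain genes, had a log2 fold change of -0.05 ± 0.14. Gabpa, the DNA-binding subunit of the GA-binding protein (also called NRF-2), had 0.14 ± 0.13, and 0.03 without high-fat animal 5. Tfam had -0.05 ± 0.11, from means of 77.8 ± 10.2 CPM in the control group (SD, n = 6) and 75.1 ± 6.78 CPM among high-fat animals (SD, n = 5). The intervals of these differences are wide relative to their size, so the lack of a call does not show equal levels.

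Summed complex I transcripts ran from 9592 to 16396 CPM in control animals, with a median of 11766. High-fat animals 1 to 5 had 12489, 13174, 11940, 11502 and 8576 CPM. Control animals 4 and 6 had the highest sums, 16396 and 15498 CPM, and high-fat animal 5 the lowest. On the log2 scale the means were 13.61 ± 0.30 (SD, n = 6) and 13.48 ± 0.24 (SD, n = 5). The difference was -0.13, and other splits of the animals often gave means at least as far apart (exact permutation test, two-sided, over 462 splits, p = 0.481).

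The second comparison asked which members moved with complex I transcripts from animal to animal. In edgeR fits of every gene on the log2 summed Nduf level, 950 genes (8.78%) passed, 550 with a positive slope (5.09%) and 400 with a negative one (3.70%). Of the 10 members 2 passed, Gabpa and Esrrg, both with a negative slope. No coactivator passed. The median slope of the 10 members was -0.17, against -0.06 over all genes. A slope is the log2 change of a gene per doubling of the summed Nduf level.

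Gabpa was lowest, at 21.8 CPM, in control animal 4, which had the highest Nduf sum. It was highest, at 40.8 CPM, in high-fat animal 5, which had the lowest. The other 5 control animals had 32.2, 31.9, 29.7, 31.4 and 26.7 CPM, and high-fat animals 1 to 4 had 27.0, 27.2, 32.4 and 31.8 CPM. Control animal 6, the second highest in Nduf, was the second lowest in Gabpa. The slope was -0.74 ± 0.17 (SE), with an adjusted p of 0.018 in edgeR. Pearson's r of log2 CPM over the 11 animals was -0.86 (permutation p = 0.00087) and Spearman's rho -0.75 (permutation p = 0.00962). Without the 2 animals farthest from the median Nduf sum, control animal 4 and high-fat animal 5, r was -0.60. The call was lost without control animal 4 (slope -0.63, adjusted p 0.0711 in edgeR) and when high-fat animal 5 was left out (slope -0.63, adjusted p 0.153 in edgeR). Within groups, taking each animal's deviation from its group mean, r was -0.85.

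Esrrg was 24.1 CPM in control animal 4 and 34.8 CPM in control animal 6, the 2 animals with the most complex I transcripts. It was 78.8 CPM in control animal 3, the control animal with the fewest. The other 3 control animals had 48.8, 55.1 and 46.7 CPM, and high-fat animals 1 to 5 had 32.7, 44.5, 37.3, 67.2 and 55.8 CPM. High-fat animals 4 and 5 had the most Esrrg RNA and the lowest Nduf sums of their group, while high-fat animal 2, with the highest Nduf sum of the group, lay between the others in Esrrg. The slope was -1.48 ± 0.35, with an adjusted p of 0.0227 in edgeR, Pearson's r was -0.79 (permutation p = 0.0046) and Spearman's rho -0.89 (permutation p = 0.00057). Without control animal 4 and high-fat animal 5 r was -0.76. The adjusted p in edgeR was 0.0728 without control animal 3, 0.0898 without control animal 4 and 0.0527 without control animal 6, so the call rests on each of these 3 animals. With diet as a second term both genes passed, with slopes of -1.53 ± 0.36 for Esrrg (adjusted p 0.0291 in edgeR) and -0.72 ± 0.18 for Gabpa (adjusted p 0.0359 in edgeR), beside 6.61% of all genes. When each animal was left out in turn, Esrrg passed in 8 and Gabpa in 4 of these 11 fits beside diet.

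The number of genes that passed also moved with single animals. It was 235 without high-fat animal 5, 446 without control animal 6, 615 without control animal 3 and 1081 without high-fat animal 1. Without both control animal 4 and high-fat animal 5, a choice made after seeing the data, 0 genes passed in edgeR. The Gabpa slope was then -0.39 and the Esrrg slope -1.74, with adjusted p of 0.504 and 0.123 in edgeR. Scaling by library size in place of TMM moved the median slope of all genes from -0.06 to -0.51 and the share of positive slopes among the called genes from 57.9% to 19.5%. Under that scaling the slopes were -1.40 for Gabpa and -2.58 for Esrrg, which is -0.89 and -2.07 relative to the median gene, against -0.68 and -1.42 with TMM.

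**Figure D2:**
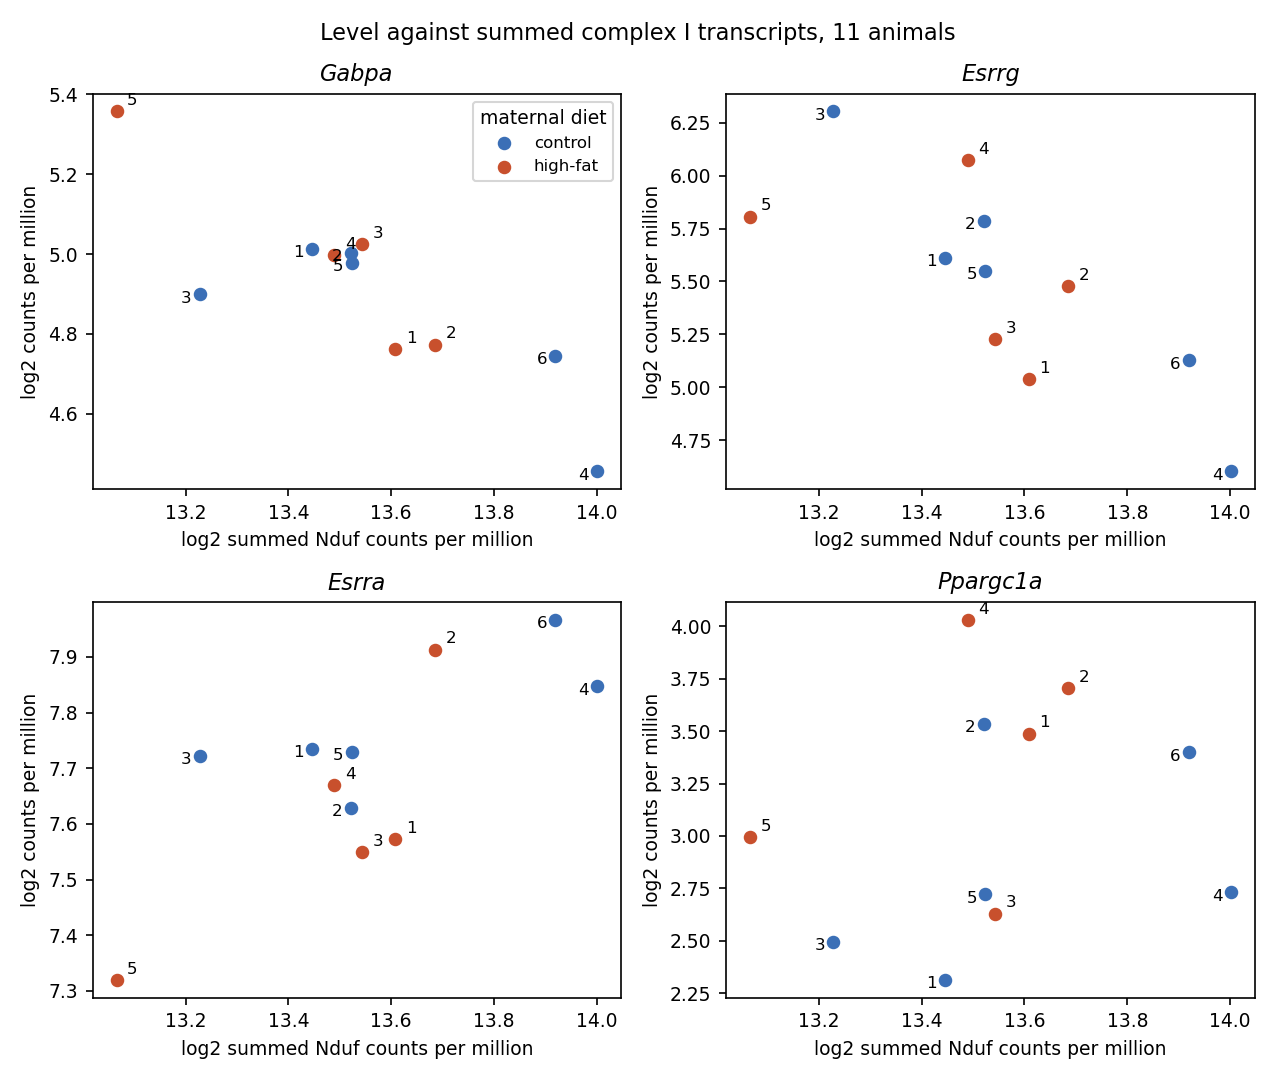
Level of Gabpa, Esrrg, Esrra and Ppargc1a (log2 CPM) against the summed complex I transcripts (log2 CPM) in the 11 animals, with control and high-fat animals in separate colours and numbered. Gabpa (r = -0.86) and Esrrg (r = -0.79) run downward and Esrra (r = 0.75) upward, while Ppargc1a (r = 0.21) shows no clear trend.

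Markers of tissue composition moved with the Nduf sum too. The matrix and fibroblast list, of which 16 of 17 genes were counted and none in the table was at 0, summed to 1941 to 6006 CPM in control and 2397 to 5417 CPM in high-fat animals. Its r with the Nduf sum was -0.74 (permutation p = 0.00903, adjusted over 7 marker lists 0.0273; rho -0.79, permutation p = 0.00563) and -0.88 without the 2 farthest animals. The fast fibre genes, 12 of 13 counted, had r = 0.77 (permutation p = 0.00516, adjusted 0.0273) and rho 0.78. They summed to 11310 to 48440 CPM in control and 11860 to 39820 CPM in high-fat animals. Tnnt3 and Myl1 gave most of this sum (14140 and 10140 CPM on average in control animals). Singly, 9 of the 12 had a positive slope, of which 4 passed (33.3%, beside 5.09% of all genes). Actn3 (-2.32 ± 2.36), Pvalb (-1.82 ± 1.23) and Myh4 (-1.06 ± 2.49) had negative slopes that did not pass, and Myh1 had 0.02 ± 1.80. The slow fibre genes had r = 0.73 (permutation p = 0.0117, adjusted 0.0273, rho 0.60, r 0.58 without the 2 farthest animals). By gene, 9 of the 10 slopes were positive and 2 passed, Myl3 and Myl2 (20%, beside 5.09% of all genes). The slow myosin Myh7 had 0.0045 ± 0.25, and Casq2 had the negative slope, -0.23 ± 0.25. Macrophage markers (17 tested, 18 of 19 counted) summed to 657 to 1956 CPM in control and 525 to 2820 CPM in high-fat animals. Their r with the Nduf sum was -0.60 (permutation p = 0.0489, adjusted 0.0856). They were highest in high-fat animal 5, which also had the most Gabpa RNA. The remaining r values were -0.56 for 7 adipocyte, 0.31 for 8 endothelial and -0.29 for 7 tested nerve and Schwann cell markers (8 counted). Their adjusted permutation p were 0.10, 0.359 and 0.359. Taken singly, 4 of the 7 adipocyte markers passed with a negative slope on the Nduf sum (57.1%, beside 3.70% of all genes). Fabp4, the largest part of the adipocyte sum (405 CPM on average in control and 424 CPM in high-fat animals), had a slope of 0.48 ± 0.44.

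Neither Gabpa nor Esrrg passed once any of 3 of these sums stood beside the Nduf level in the fit. With the macrophage sum the slopes were -0.77 and -1.72 (adjusted p 0.092 and 0.0577 in edgeR, 249 genes called). With the matrix sum they were -0.80 and -1.39 (adjusted p 0.236 and 0.333, 45 genes called). With the fast fibre sum they were -0.83 and -0.94 (adjusted p 0.292 and 0.536, 0 genes called). Without these sums the slopes were -0.74 and -1.48, with 950 genes called. The 3 sums themselves had r of -0.60, -0.74 and 0.77 with the Nduf sum. Over 11 animals these fits therefore cannot separate the marker sums from the Nduf level. The part of tissue composition in the relation was not tested.

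Esrra ran the other way. It was highest in control animal 6 (250 CPM), high-fat animal 2 (241 CPM) and control animal 4 (230 CPM) and lowest in high-fat animal 5 (160 CPM). Those animals were the second, the third, the first and the last in the Nduf order. Its slope was 0.50 ± 0.17, with an adjusted p of 0.0739 in edgeR and 0.0182 in DESeq2. Pearson's r was 0.75 (permutation p = 0.00917), Spearman's rho 0.55 (permutation p = 0.0861), and r was 0.53 without the 2 farthest animals. It did not pass the main test, and among the alternatives it passed only in DESeq2. With the macrophage, matrix and fast fibre sums as a term the adjusted p in edgeR was 0.34, 0.528 and 0.494. Leaving out 1 animal gave an adjusted p of 0.056 to 0.355 in edgeR. Library size scaling gave a slope of 0.21 (adjusted p 0.558 in edgeR) and an r of 0.35. That slope is 0.72 relative to the median gene, against 0.56 with TMM.

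With TMM scaling the coactivators gave smaller relations. For Ppargc1a the slope was 0.44 ± 0.65 with an adjusted p of 0.703 in edgeR and r was 0.21 (permutation p = 0.527; rho 0.27, permutation p = 0.417). High-fat animal 4, with the most Ppargc1a RNA of all 11 animals at 16.2 CPM, had the fourth lowest Nduf sum, 11502 CPM. Control animal 4, with the highest Nduf sum, had 6.48 CPM of Ppargc1a. For Ppargc1b the slope was -0.27 ± 0.24 and r was -0.32 (permutation p = 0.342; rho -0.26). For Pprc1 it was -0.06 ± 0.17 and r was -0.12 (permutation p = 0.724; rho -0.38). Within groups the r values were 0.39, -0.43 and -0.09. These values depended on the scaling. With library size in place of TMM, r was -0.0080 for Ppargc1a, -0.60 for Ppargc1b and -0.74 for Pprc1. The slopes of Ppargc1b and Pprc1 were then -0.85 and -0.61 (adjusted p 0.142 and 0.113 in edgeR). Relative to the median gene they were -0.35 and -0.11, against -0.21 and 0.00013 with TMM.

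Of the remaining members, Nrf1 had a slope of -0.35 ± 0.22 (adjusted p 0.334 in edgeR) and r of -0.52 (permutation p = 0.0989; rho -0.45). Tfam had 0.20 ± 0.20 and r of 0.31 (permutation p = 0.357; rho 0.22). The Tfam r was 0.75 without control animal 4, which combined the highest Nduf sum with 65.5 CPM of Tfam, and 0.05 without high-fat animal 5, which combined the lowest Nduf sum with the lowest Tfam level, 65.1 CPM. Ppara had r of -0.38 (permutation p = 0.256; rho -0.33) and -0.09 without control animal 4. Ppard had r of 0.28 (permutation p = 0.411; rho 0.50), and 0.64 within groups. Its slope beside diet was 0.65 ± 0.26, with an adjusted p of 0.154 in edgeR.

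**Figure D3:**
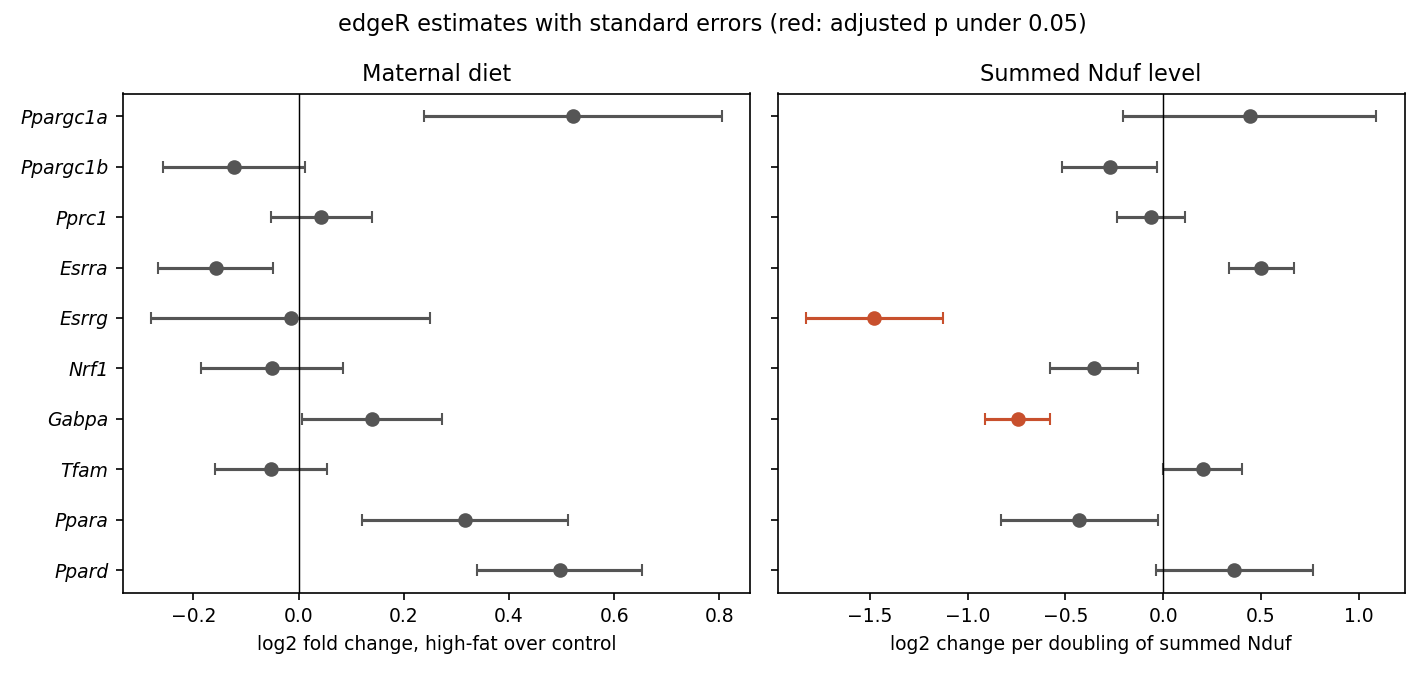
Estimates with their SE for the 10 genes, as the log2 fold change by maternal diet (high-fat minus control) and as the log2 slope per doubling of the summed Nduf level, on linear axes with a line at 0. Red marks an adjusted p under 0.05 in edgeR and grey all others. Gabpa (-0.74) and Esrrg (-1.48) are red in the slope panel, and none is red in the diet panel.

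No row made up more than 8.1% of the Nduf sum, the share of Ndufb9, and the 42 rows were also taken singly, as a description over the same 11 libraries. Esrra correlated positively with 42 of 42 rows, with a median r of 0.67. Gabpa correlated negatively with 39 of 42 rows, with a median r of -0.78 and the lowest value, -0.95, for Ndufa11. Esrrg was negative with 39 of 42, with a median of -0.69 and -0.91 for Ndufa6. Nrf1 and Ppargc1b were negative with 41 rows each, with medians of -0.47 and -0.30. Ppargc1a was positive with 38 rows, at a median of only 0.19. Tfam was positive with 39 (median 0.32), Ppard with 34 (median 0.24), Ppara negative with 37 (median -0.32) and Pprc1 negative with 33 (median -0.12).

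Among the rows that did not follow the sum was Ndufs1, the largest core subunit, which ran from 330 to 476 CPM and had an r of -0.04 with the sum of the other rows. Its r with Gabpa was 0.35, the highest of the 42, and its r with Ppara was 0.54. Ndufb9, an accessory subunit, had an r of 0.97 with the sum of the other rows. The assembly factors Ndufaf7 and Ndufaf1 had -0.18 and 0.05. Ndufaf7 was the row with the lowest r with Esrra, 0.05, and the highest with Esrrg, 0.50, and Nrf1, 0.37. The CCGGAAG letters printed above for Gabpa and Tfam occurred in 9 of 50 windows of Nduf genes, including Ndufs1, Ndufs8 and Ndufa2. The 7 counted rows with these letters had a median r with Gabpa of -0.84 (-0.89 to 0.35), and the 30 counted rows with a window but without the letters -0.76 (-0.95 to 0.25), so the ranges overlapped.

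**Figure D4:**
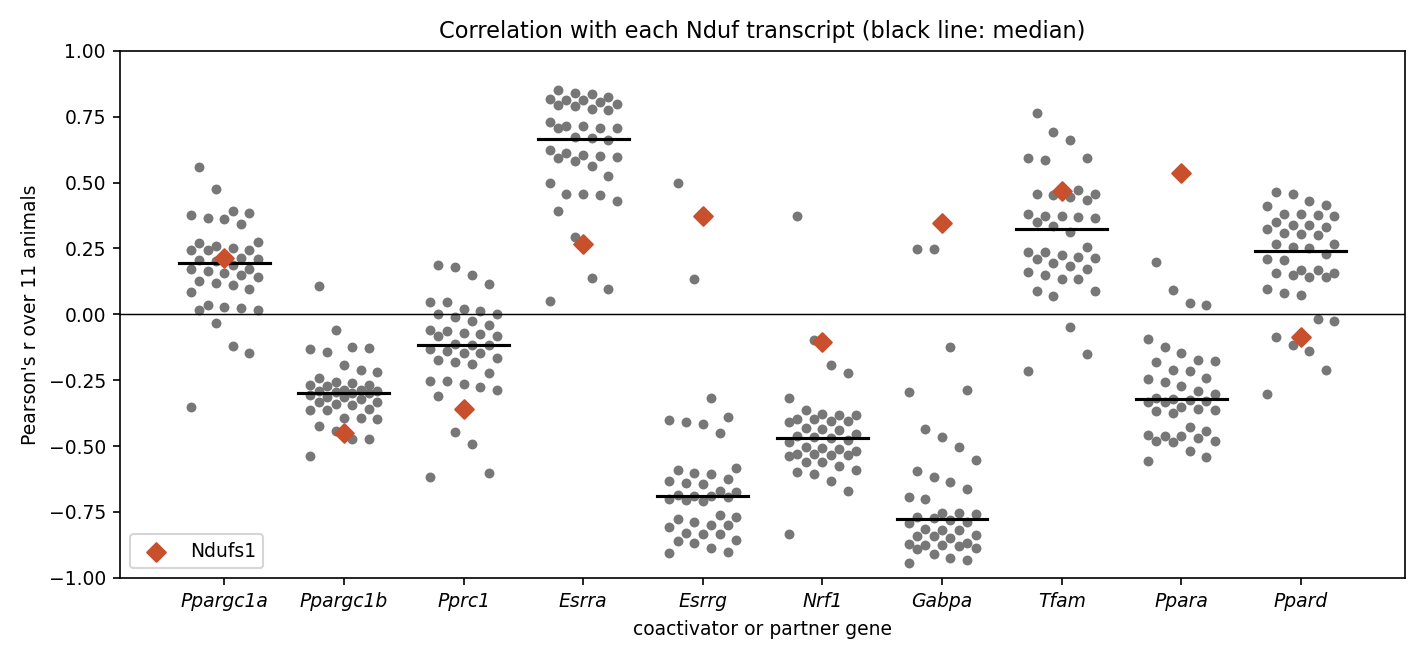
Pearson's r of each of the 10 genes with each of the 42 Nduf rows over the 11 animals, 1 point per row, with the median as a black line and Ndufs1 as a red diamond. All points of Esrra lie above 0 (median 0.67). Most points of Gabpa (median -0.78) and Esrrg (median -0.69) lie below it, while Ndufs1 lies above it for both.

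Among themselves the members formed no single block. Of the 45 pairs 24 correlated positively and 21 negatively, with a median r of 0.03. The lowest was Nrf1 with Tfam, at r = -0.77 (permutation p = 0.00604; rho -0.67, permutation p = 0.0286; -0.52 without the 2 farthest animals). Esrra and Gabpa had r = -0.75 (permutation p = 0.0105; rho -0.67; -0.54 without the 2 farthest). The highest was Ppargc1a with Ppard, at 0.69 (permutation p = 0.0191; rho 0.65), which was 0.34 without high-fat animals 4 and 2 and so rests on them. Esrrg and Gabpa, the members that passed against Nduf, had r = 0.65 (permutation p = 0.029; rho 0.58). The coactivator pair Ppargc1a and Ppargc1b had -0.18 (permutation p = 0.584; rho -0.05). In edgeR fits of all genes on each member's level, no other member passed after adjustment over all genes, beside 270 genes (2.50%) on the level of Gabpa, 24 (0.222%) on that of Esrrg, 7 (0.0647%) on that of Ppard, 2 (0.0185%) on that of Pprc1 and 0 on each of the others.

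For 4 members the tested genes of at least 5 CPM with the most similar pattern over the 11 animals were listed by Pearson's r, out of 8571 genes. For Ppargc1a they were Sh3rf2 (0.91), Naprt1 (0.88), Mat2a (0.87) and Eef2k (0.86). Naprt1 codes for an enzyme of NAD synthesis and Mat2a for one that makes the methyl donor S-adenosylmethionine. For Ppargc1b they were Cnnm4 (0.86), Lyl1 (0.85), Wdr81 (0.83) and Josd1 (0.82). For Esrra they were Idh2 (0.93), the NADP-dependent isocitrate dehydrogenase of mitochondria, then Bin1 (0.93), Cops7a (0.92) and Cog4 (0.92). For Tfam they were Asnsd1 (0.94), Iqcb1 (0.94), Psmd6 (0.92) and Vdac3 (0.90), the last a pore of the outer mitochondrial membrane. None of these patterns was tested, since the highest of many values was taken.

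Genes downstream of the receptors and factors were read from the same fits. Of 33 tested targets of the estrogen-related receptors and NRF factors, all outside complex I, 23 passed with a positive slope on the Nduf sum and 0 with a negative one (69.7%, beside 5.09% of all genes), with a median slope of 0.84. Atp5o of ATP synthase had 1.16 ± 0.12, and Cox5b and Cox4i1 of cytochrome oxidase had 1.26 ± 0.13 and 1.27 ± 0.15, each with an adjusted p of 0.000902 in edgeR. By maternal diet 0 of the 33 passed. A lower fitted level in the high-fat group was found for 30, with a median log2 difference of -0.13. Over all genes 50.9% had a higher fitted level in that group. Since most of the 33 moved with the Nduf sum, the 30 differences are not independent of one another. Idh3a (-0.17 ± 0.11), Timm44 (-0.17 ± 0.11) and Tomm34 (-0.14 ± 0.09) had the smallest p by diet. Many of these genes belong to the respiratory chain, like the Nduf rows they were set against.

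The median slope of 23 tested PPAR targets on the Nduf sum was 0.69. Of these targets 9 passed with a positive slope (39.1%, beside 5.09% of all genes) and 0 with a negative one. They included Acadvl, which starts the oxidation of very long fatty acids (1.03 ± 0.16, adjusted p 0.00301 in edgeR), the carnitine carrier Slc25a20 (1.18 ± 0.25, adjusted p 0.0139) and the fatty acid binding protein Fabp3 (1.57 ± 0.34, adjusted p 0.0146). By diet 0 of the 23 passed. Ucp2 had a log2 fold change of 0.45 ± 0.23 and Pdk4, which spares glucose by blocking pyruvate dehydrogenase, 0.77 ± 0.41, each with an adjusted p of 0.974 in edgeR. Pdk4 had 122 CPM on average in control and 207 CPM in high-fat animals.

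Genes listed for the expression and copying of mitochondrial DNA, among them translation factors and proteases, gave no call in either comparison. Of 20 tested genes the median slope on Nduf was 0.22. The translation elongation factor Tufm had 0.50 ± 0.16 (adjusted p 0.0678 in edgeR). The mitochondrial RNA polymerase Polrmt had 0.63 ± 0.21 (adjusted p 0.073). Polg2, the accessory subunit of the DNA polymerase, had 1.10 ± 0.38 (adjusted p 0.0874). By diet 16 of the 20 had a lower fitted level in the high-fat group, with a median of -0.07, while 50.9% of all genes had a higher one. The smallest p were those of Tefm (-0.25 ± 0.11), Tfb1m (-0.24 ± 0.12) and Polg2 (-0.41 ± 0.24), with an adjusted p of 0.974 each in edgeR.

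Regulators upstream of PGC-1 were called about as often as genes in general. Of 20 tested activators 1 passed with a positive and 1 with a negative slope on Nduf (5% each, beside 5.09% and 3.70% of all genes). Prkag1, a subunit of the energy sensor AMPK, had a slope of 0.52 ± 0.12 (adjusted p 0.0188 in edgeR), and Prkaa1, a catalytic subunit of the same kinase, had -0.92 ± 0.23 (adjusted p 0.0309). By diet 0 passed, and the log2 fold changes with the smallest p were 0.12 ± 0.11 for Crtc2, -0.19 ± 0.18 for Sirt3 and 0.24 ± 0.28 for Crtc1. Of 17 corepressors and other coregulators, Smarcd3 of the BAF chromatin complex (0.68 ± 0.14, adjusted p 0.0114) and the acetyltransferase Kat2a (0.86 ± 0.23, adjusted p 0.0379) passed with positive slopes on Nduf (11.8%, beside 5.09% of all genes), while Ncoa2 had -0.96 ± 0.37 (adjusted p 0.119). By diet 0 of the 17 passed. The corepressor Nrip1, known for restraining oxidative genes, had a log2 fold change of 0.58 ± 0.23, the deacetylase Hdac4 0.54 ± 0.21 and Hdac5 -0.21 ± 0.14, each with an adjusted p of 0.974 in edgeR.

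Of 20 other partner receptors and factors, Rxrg, a retinoid X receptor that pairs with the PPARs, passed with a slope of 0.97 ± 0.23 (adjusted p 0.0232 in edgeR) and Tead1 with -1.13 ± 0.30 (adjusted p 0.0342), again 5% in each direction beside 5.09% and 3.70% of all genes, while Rxrb had 0.43 ± 0.16 (adjusted p 0.102). Gabpb1, the subunit that gives Gabpa its activation domain, had 3.14 and 3.55 CPM in the control and high-fat groups and a slope of -0.31 ± 0.48 (adjusted p 0.72). By diet 0 of the 20 passed, and the thyroid hormone receptor Thra (-0.27 ± 0.09), Foxo1 (0.60 ± 0.25) and Foxo3 (0.60 ± 0.25) had the smallest p, with an adjusted p of 0.974 each in edgeR.

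The members were last set against the animals' own metabolic measures. Plasma insulin was given for 10 animals, all but high-fat animal 5. It ran from 1.36 to 2.08 ng/ml in control animals. High-fat animals 1, 3 and 4 had 2.29, 2.57 and 2.65 ng/ml and high-fat animal 2 had 1.57 ng/ml. The insulin fit had no diet term, so slopes on insulin were not separated from the diet difference. No gene of 10820 passed in edgeR (0% called, 377 genes or 3.48% at an unadjusted p under 0.05), and none of the 10 members did. Ppard had a log2 slope of 0.45 ± 0.20 per ng/ml, with an adjusted p of 1 in edgeR (unadjusted p 0.0491), and 0.23 without high-fat animal 4. Ppargc1a had 0.64 ± 0.33, and 0.31 without high-fat animal 4, the animal with the highest insulin, 2.65 ng/ml. Against total fat as a percentage of body weight, again without a diet term, 1 gene passed (0.00925%), which was no member. The smallest p among members were those of Ppard, with 0.06 ± 0.03 per percentage point (adjusted p 0.543 in edgeR), and Nrf1, with -0.04 ± 0.02 (adjusted p 0.558). Without high-fat animal 1, which had the most fat at 16.3% of body weight, the Ppard slope was 0.12.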

How the data were processed

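Poly(A) RNA from soleus was sequenced for 36 cycles from 2 µg of total RNA, per the labels' protocols. The authors deposited raw read counts per gene symbol, and FastQC, BWA, HTSeq and edgeR are named in the submitters' processing notes without versions. Build, annotation and strand use were not given in the sources used here, and reads this short can be split between close copies of a gene. Columns were matched to animals by name and groups taken from the diet label. High-fat animals 1 to 5 are C91, H1, C25, H20 and A37, and their numbers differ from those in the column names. The lowest chi-square per degree of freedom over 25 pairs of libraries within groups was 24, so no library repeated another of its group. Pairs across groups were not compared.

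Members and gene lists were chosen with earlier results of these data known. Counts were scaled by TMM (factors 0.897 to 1.12), filtered by filterByExpr and tested with edgeR's quasi-likelihood test over all genes (Benjamini-Hochberg, threshold 0.05). Standard errors are the estimate divided by the square root of F. The summed Nduf level is the log2 of summed scaled CPM. Correlations used log2 CPM (prior count 2) and 100000 random pairings, two-sided. The fits were tested on simulated data. In all, 24 rows carry names turned into dates (0.107% of counts) and are not named. The members equal current RefSeq symbols in 10 of 10 cases, and promoter windows are from RefSeq.

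Named were the 10 members, up to 3 genes per pathway list with the smallest p in each of the diet and Nduf fits, and the 4 most similar genes for Ppargc1a, Ppargc1b, Esrra and Tfam. Some genes that this rule picks are left out of the text and stayed in the fits. Gabpb1 and single Nduf rows were named after their values were seen. The lists were targets of the estrogen-related receptors and NRF factors, PPAR targets, mitochondrial DNA expression, upstream activators, corepressors, other partners and 7 lists of fibre and cell type markers. Alternatives were other scalings, no filter, limma voom, DESeq2, added terms (the initial of each animal's name, marker sums, diet or Nduf), subunits only, a block of the numbers in the column names and leaving out each animal. The statistics ran in edgeR 4.0.16, DESeq2 1.42.0 and limma 3.58.1 under R 4.3.3. Motif searches and plots used pandas 2.3.3, matplotlib 3.10.9 and NumPy 2.4.6 under Python 3.11.15.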

Additional observations from a re-analysis of the deposited data

Results flagged for a closer look

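In 36 groups of 5 or 6 values (the 10 members, 7 marker sums and the Nduf sum, each within 1 diet group), the highest or lowest value stood apart from the others in 1, where chance would flag about 1 in 20. It was the summed level of nerve and Schwann cell markers in the control group. Control animal 5 had 2032 CPM and the nearest control animal 299.7 CPM, a gap of 0.915 of the group's range. None of the 20 member groups stood out in this way, and the nerve marker sum had an r of -0.29 with the Nduf sum.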

How the results depend on the processing

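The deposited column names give 5 numbers that occur in both groups, but nothing in the labels ties animals of the same number together. Same-numbered animals did not deviate together (r of their deviations from the group means -0.355 to 0.037, and 0 of 5 high-fat animals matched their own number best). With that number as a replicate block, chosen after seeing the data, 0 genes and 0 members were called by diet, and Esrrg had 0.090. No alternative called a member by diet, plasma insulin or body fat. The number of genes called by diet was 7 in DESeq2 and 0 under the other alternatives. With the Nduf sum, DESeq2 called 1536 genes, a term for the initial of each animal's name left 601, the macrophage sum 249, the matrix sum 45 and the fast fibre sum 0. Without the 2 animals farthest from the median, an alternative chosen after seeing the data, 0 were called. Members called were 0 with each of the 3 marker sums and without those 2 animals, 3 in DESeq2 (with Esrra) and 2 under the other alternatives that kept all 11 animals. Beside diet the count was 1 with no filter on low counts, where Gabpa had an adjusted p of 0.0539 in edgeR. The cause was not tested.

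Leaving out each animal in turn gave 0 to 0 genes and 0 to 0 members by diet, 235 to 1081 genes and 0 to 2 members with the Nduf sum, 0 to 2 members beside diet, 0 to 0 members with insulin and with body fat, and a diet difference of -0.20 to -0.02 in the log2 Nduf sum.

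Signs turned for members that were not called. By diet Esrrg was 0.032 in voom, 0.0047 with library size scaling and 0.028 with the initial as a term. Library size scaling gave Nduf slopes of -0.063 for Ppargc1a, -0.14 for Tfam and -0.052 for Ppard (r -0.0080, -0.16 and -0.016), which relative to the median gene are 0.44, 0.37 and 0.46. The matrix sum gave -0.31 for Ppargc1a and -0.056 for Tfam, the macrophage sum 0.17 for Pprc1 and the initial -0.039 for Ppard. Without the 2 farthest animals Pprc1 had 0.018 (r 0.025) and Ppara 0.19 (r 0.099). Esrrg had 0.0057 per ng/ml insulin in voom.

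Leaving out 1 animal turned the sign by diet for Pprc1 (-0.0085 to 0.11), Esrrg (-0.17 to 0.18) and Nrf1 (-0.15 to 0.011). With Nduf it did so for Pprc1 (-0.10 to 0.035, beside diet -0.090 to 0.038, r -0.19 to 0.071). With insulin it did so for Pprc1 (-0.11 to 0.047), Esrrg (-0.42 to 0.24), Nrf1 (-0.11 to 0.0020), Tfam (-0.083 to 0.034) and Ppara (-0.36 to 0.12), and with body fat for Pprc1 (-0.0080 to 0.017), Esrra (-0.012 to 0.027) and Ppara (-0.032 to 0.039).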
